A study of Saccharomyces cerevisiae with 3 samples.

Results

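The comparison described here sets yeast mother cells of the 11th generation against those of the 7th generation, as the difference of their log2 ratios to the 1st generation. It rests on 2 of the 3 arrays of the study, chosen by their generation label, and covers 5792 gene features of which 5556 had signal above background on both arrays. Cells were Saccharomyces cerevisiae strain BY4742, which is haploid, has the alpha mating type and carries deletions at HIS3, LEU2, LYS2 and URA3. Per the labels, their surface was tagged with biotin, they grew in YPD, a rich glucose medium, at 30 °C, and older cells were pulled out with biotin-binding beads after 4, 7 or 11 generations. RNA of the older cells was labelled with Cy3 and RNA of 1st generation cells with Cy5, and each pair was hybridised to 1 array of yeast oligonucleotide probes. The strain, medium, temperature and the label of the Cy5 reference were the same for both groups, so that 7th and 11th generation cells differed by label only in the number of generations.

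A budding yeast mother divides unequally and makes a limited number of daughters, and the count of her divisions is her replicative age. Ageing mothers are known for slower cell cycles, a less acidic vacuole, failing mitochondria, a disturbed supply of iron-sulfur clusters with induction of the iron uptake genes, and swollen nucleoli. The biotin tag stays with the mother's own wall, because a daughter builds a new one, which is what makes it possible to recover old cells from a growing culture.

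Each generation was measured on 1 array, with no replicate and no dye swap, so no difference below carries a test or a p-value. Changes are given as log2 differences, 11th minus 7th, and a feature is called higher or lower when it differed at least 2-fold. The sources used here give neither the origin of the 1st generation cells nor whether 1 preparation of their RNA served all arrays. An array of a cell population cannot tell fewer cells of a type apart from less RNA per cell.

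Between the 7th and the 11th generation, 103 features were higher and 34 lower, which is 1.85% and 0.612% of those counted. The preceding step, from the 4th to the 7th generation, gave 9 higher (0.162%) and 6 lower (0.108%) of 5550. Across all features the log2 difference had an SD of 0.40 for the 11th against the 7th and of 0.18 for the 7th against the 4th. Both steps use the 7th generation array, so the figures are set side by side and not against each other. The interquartile range ran from -0.21 to 0.23, around a median of -0.0016. At a 1.5-fold threshold, 377 features (6.79%) were higher and 209 (3.76%) lower. Just inside the 2-fold limit lay PAU11, a seripauperin, at 1.0014 and PBN1, a factor of the endoplasmic reticulum, at -1.0217, and just outside lay MOH1 at 0.9992 and CCC1 at -0.9871. The 1st generation signal of PBN1 moved 1.98-fold, from 291 to 626, and its difference on the Cy3 channel alone was -0.04.

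**Figure D1:**
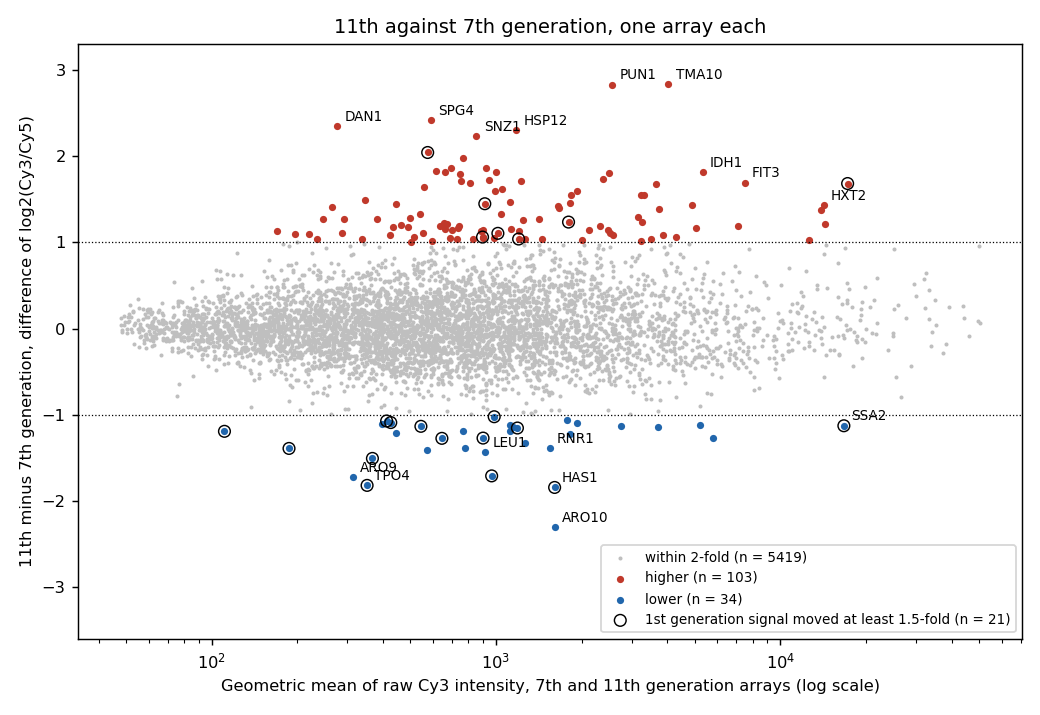
Each point is 1 of the 5556 features counted; the horizontal axis gives the geometric mean of the raw Cy3 intensity on the 7th and 11th generation arrays (arbitrary units, log scale) and the vertical axis the 11th minus 7th difference of log2(Cy3/Cy5). The dotted lines mark 2-fold, the 103 higher features are red, the 34 lower ones blue, and rings mark the 21 with a reference (Cy5) signal at least 1.5-fold apart on the 2 arrays. The largest differences, TMA10 and PUN1 upwards and ARO10 downwards, lie at intermediate to high signal.

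The measured background of the comparison was as follows. The 1st generation channel, which holds RNA of the same label on both arrays, differed at least 1.5-fold for 197 features (3.55%) and at least 2-fold for 84. Of the 103 higher features, 96 had a 1st generation signal within 1.5-fold, but of the 34 lower ones only 20 did. Print blocks 1 and 2 of the array held 17 of the 34 lower features, against 8 of the 103 higher ones (7.77%) and 12.6% of all features. Actin, ACT1, was spotted 8 times; 7 spots gave -0.10 ± 0.034 (SD), and the spot of block 4 gave -1.73 with its Cy5 signal going from 8996 to 27085. Genes whose 1st generation signal moved are marked as such below, and the part of this in each result was not tested.

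TMA10 and PUN1 had the largest increases. TMA10, whose small product associates with ribosomes, had a raw Cy3 intensity of 1419.7 in 7th and 11488 in 11th generation cells, while its 1st generation signal was 129 and 147. Its log2 ratio to the 1st generation was 1.06, 1.72 and 4.55 at generations 4, 7 and 11, and its difference of 2.83 is 7.13-fold. TMA10 thus stood above the 1st generation on all 3 arrays and highest at the 11th.

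PUN1 encodes a plasma membrane protein of the eisosome-associated compartment that is made under nitrogen stress. Its Cy3 intensity was 883 and 7461 at the 7th and 11th generation against 202 and 237 for the 1st, and its log2 ratio went through 0.88, 0.51 and 3.34. The difference was 2.83 (7.11-fold), after a lower value at the 7th than at the 4th generation.

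SPG4, needed for survival in stationary phase at high temperature, followed at 2.41 (5.33-fold), with Cy3 intensities of 182 and 1904. HSP12, a small heat shock protein that stabilises membranes, was at 449 and 3082, a difference of 2.30 (4.92-fold). HSP26, a small heat shock protein that holds misfolded proteins, had ratios of -2.29, -1.12 and 0.69 and a difference of 1.82. HSP26 was therefore below the 1st generation on the 2 earlier arrays and above it on the 11th generation array.

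Among 20 counted genes known from stationary phase, 5 were higher and none lower, with a median of 0.37. Besides TMA10 and SPG4 these were SNZ1, a subunit of the enzyme that makes vitamin B6 (2.23), MPC3, a mitochondrial pyruvate carrier subunit (1.60), and STF2, a hydrophilin that protects against drying (1.54). SNZ1 stood alone in its family, since SNZ2 and SNZ3, nearly identical copies of each other, were at 0.16 and 0.14. Among 31 general stress targets, 3 were higher (HSP12, HSP26 and DDR2 at 1.28), none was lower, and the median was 0.29 with 24 above 0. Of 21 cytosolic Hsp70 and Hsp90 chaperones and co-chaperones, none was higher and SSA2 was lower, with a median of -0.19. That list includes constitutive members and leaves out HSP12 and HSP26. SSA2, a constitutive Hsp70, read -1.13 with a 1st generation signal that itself went from 23486 to 9978, and its close copy SSA1 read 0.08.

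**Figure D2:**
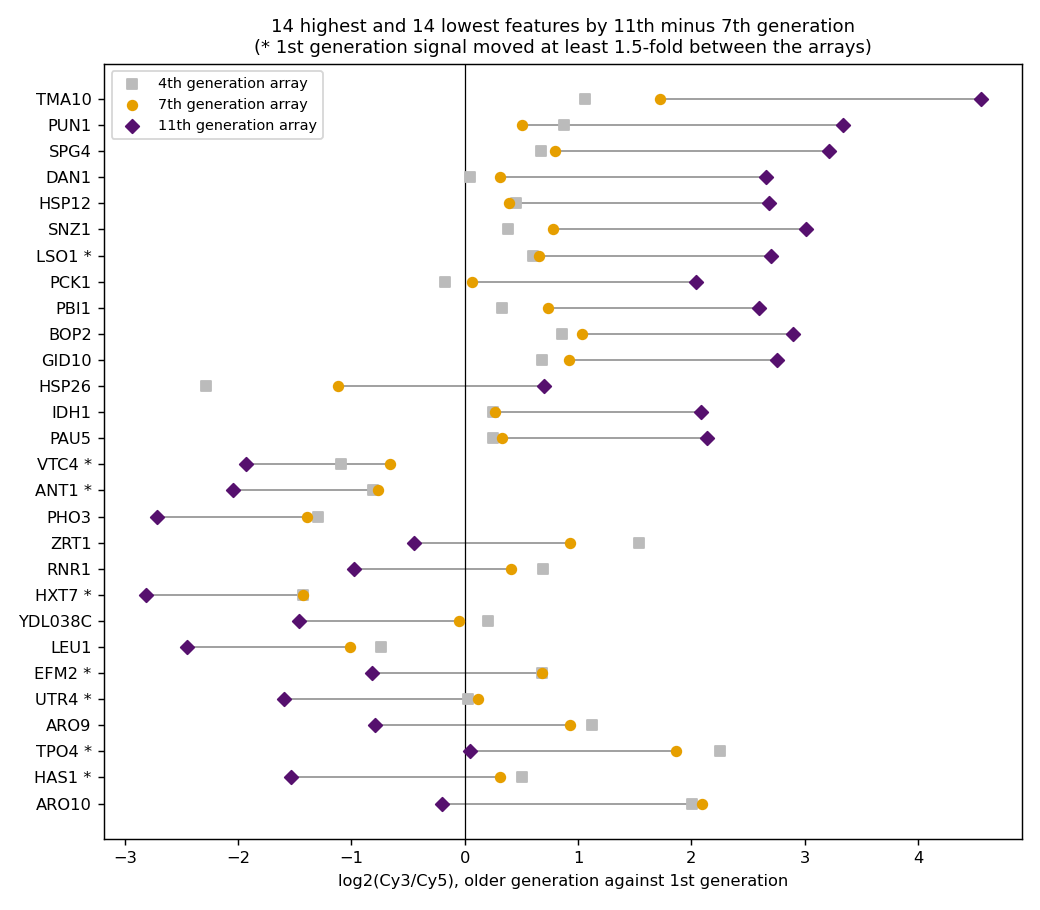
The horizontal axis gives log2(Cy3/Cy5) against the 1st generation on the 4th (grey squares), 7th (orange circles) and 11th (purple diamonds) generation arrays for the 14 features with the highest and the 14 with the lowest 11th minus 7th difference. For TMA10, PUN1 and SPG4 the 11th generation point stands apart to the right of the other points, and for ARO10 and ARO9 to the left. Asterisks mark features with a reference (Cy5) signal at least 1.5-fold apart on the 2 arrays.

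Cell wall mannoproteins of the seripauperin and DAN/TIR families formed the list with the highest median. These serine-rich wall proteins are normally made without oxygen or in the cold. Of 25 counted members, 13 were higher and none lower, with a median of 1.00, and 24 lay above 0; over all features 1.85% were higher and the median was -0.0016. TIR2 at -0.21 was the exception.

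DAN1 led the family. Its Cy3 intensity was 58.6, 73.0 and 1046 at generations 4, 7 and 11, which gave ratios of 0.05, 0.31 and 2.66 and a difference of 2.34 (5.08-fold). The 1st generation signal of DAN1 was 22.8 and 27.4, not above the blank limit on either array, so the lower side of its ratio is background signal. On the Cy3 channel alone the DAN1 difference was 2.88.

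PAU5 (1.81), PAU13 (1.79), PAU24 (1.55), PAU16 (1.45) and PAU7 (1.45) were the highest seripauperins. PAU24 went from 1023 to 3309 in Cy3, while its Cy5 signal was 158 on both arrays. The glycosylphosphatidylinositol-anchored wall proteins TIR3 and TIR4 were higher by 1.43 and 1.04. PAU genes are near-identical in sequence and their probes may read each other's transcripts, so the 10 higher PAU features are not 10 independent observations. PAU1, PAU6, PAU14 and PAU18 have no feature of their own on the array. Many PAU genes lie near chromosome ends: of the 103 higher features, 14 (13.6%) were among the 10 outermost genes of a chromosome end, against 4.22% of all features with a known order and 1 (3.23%) of the 31 lower ones with one.

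Other wall and oxygen lists had medians nearer 0. Of 24 genes of the cell wall integrity pathway and PIR proteins, PUN1 and NCW2, a wall protein, were higher (NCW2 at 1.39), with a median of 0.05. PIR1, a covalently bound wall protein, was at -0.80, and GSC2, the stress-induced glucan synthase subunit, at 0.85. Of 18 genes that mark the shift between aerobic and hypoxic isoforms, ANB1, the translation factor eIF5A isoform made without oxygen, was higher by 1.55 and none was lower. ANB1 went from 1892 to 5525 in Cy3, whereas HYP2, its aerobic copy, read -0.44. CYC1, aerobic cytochrome c, was at -0.90 and NCE103, carbonic anhydrase, at 0.92. The median of that list was -0.04. Ergosterol genes, which need oxygen and heme, had 0 higher and 0 lower of 26, with 20 below 0, a median of -0.16 and ERG5 (-0.96) and ERG11 (-0.89), a pair of cytochrome P450 enzymes, lowest.

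Iron uptake genes mostly lay above 0. These genes are switched on by Aft1 and Aft2 when the cell senses a lack of iron-sulfur clusters. Of 34 counted members, 11 were higher and none lower, against 1.85% and 0.612% of all features. The median was 0.67, and 26 lay above 0. The list covers both siderophore and reductive iron uptake, but the 11 include no gene of the reductive uptake system. At the 1.5-fold threshold 19 were higher.

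FIT1, FIT2 and FIT3 encode mannoproteins that hold siderophore iron in the wall. FIT3 went from 3638 to 15407 in Cy3 and from 554 to 830 in Cy5, with ratios of 0.62, 1.35 and 3.04 and a difference of 1.69 (3.23-fold). FIT2 went from 1931 to 6943, a difference of 1.68, and FIT1 from 184 to 618, a difference of 1.04. All 3 FIT genes were thus higher at the 11th generation, at very different signal levels of their probes.

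Of the siderophore transporters, ARN1 (1.19), SIT1 (1.16) and ARN2 (1.14) were higher. On the Cy3 channel alone they gave 0.69, 1.01 and 1.26, and the 1st generation signal of ARN1 went from 120 to 78.5. SIT1 had already stood at 2.53 and 2.51 above the 1st generation on the 4th and 7th generation arrays before 3.68 on the 11th. HMX1, the heme oxygenase that frees iron from heme, was higher by 1.33, and TIS11, which marks transcripts of iron-using proteins for decay, by 1.09. ISU1, the scaffold on which iron-sulfur clusters are built, was higher by 1.02, and BNA2, the first enzyme of the route from tryptophan to NAD, by 1.15. LSO1, a small protein induced by iron loss, gave 2.04, but its raw 1st generation signal went from 35.7 to 56.9; on the Cy3 channel alone it gave 2.63. The iron list was not uniform, since 8 members lay below 0, the lowest at -0.40.

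**Figure D3:**
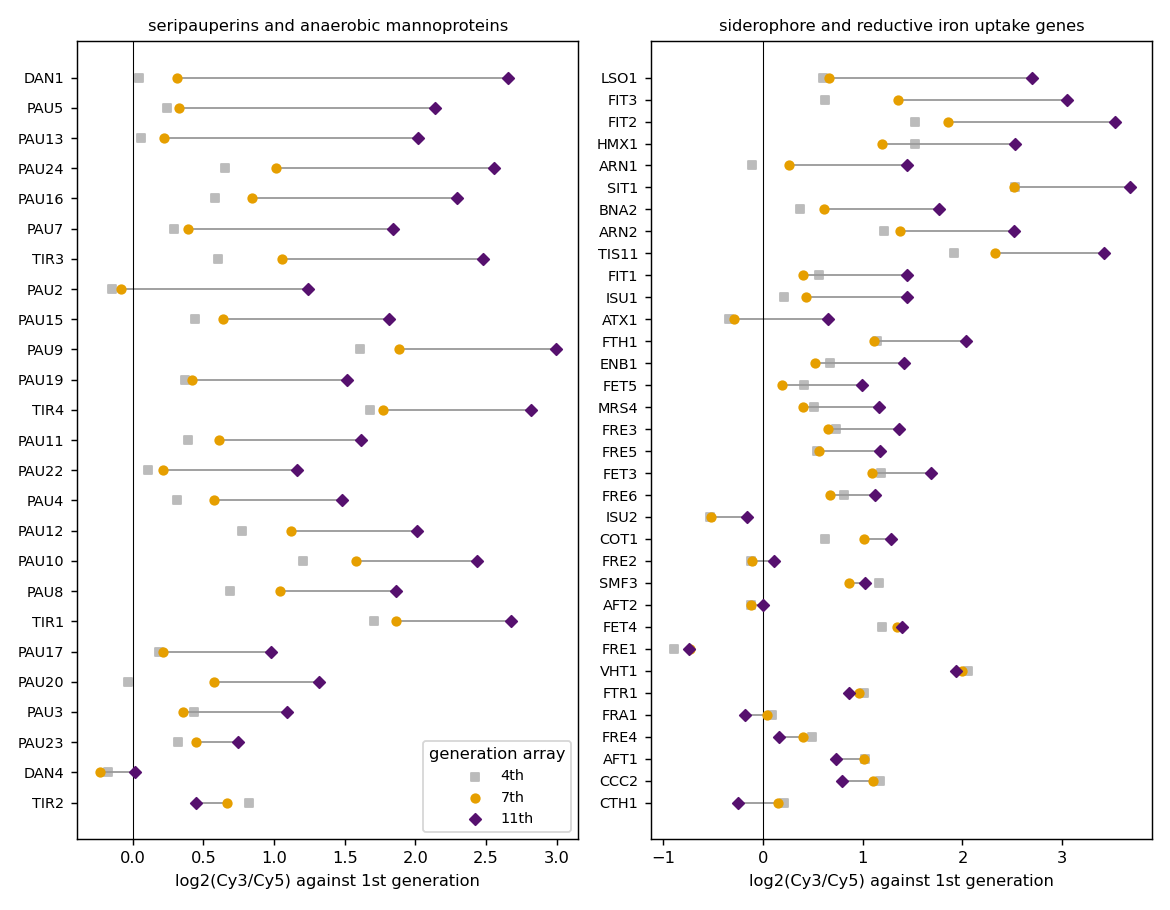
Each row is a counted member of the seripauperin and anaerobic mannoprotein list (left, 25) or of the iron uptake list (right, 34), and the horizontal axis gives log2(Cy3/Cy5) against the 1st generation on the 4th (grey squares), 7th (orange circles) and 11th (purple diamonds) generation arrays. For most wall genes the 4th and 7th generation points lie close together and the 11th to their right, whereas iron genes such as SIT1 were already far above 0 on the earlier arrays.

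LEU1, isopropylmalate isomerase of leucine synthesis, went from 1412 to 594 in Cy3 with a 1st generation signal of 1130.1 and 1072, a difference of -1.43. ILV3, dihydroxyacid dehydratase of isoleucine and valine synthesis, read -1.13. RLI1, needed for ribosome recycling, and GLT1, glutamate synthase, read -1.22 and -1.19.

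The retrograde response is known to raise genes that supply glutamate precursors when mitochondria fail, and all 7 of its counted targets lay above 0, with 3 higher, none lower and a median of 0.83. IDH1 and IDH2, the subunits of mitochondrial NAD-dependent isocitrate dehydrogenase, were higher by 1.82 and 1.43, with Cy3 intensities of 2931 and 9717 for IDH1 and 3061 and 7779.5 for IDH2. CIT2, peroxisomal citrate synthase and the usual reporter of this response, had ratios of 1.83, 2.79 and 4.00 and a difference of 1.21. CIT2 thus stood above the 1st generation on all 3 arrays and higher on each later one.

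Of 17 enzymes of the tricarboxylic acid cycle, IDH1 and IDH2 were higher and none was lower, with a median of 0.29 (0.11 on the Cy3 channel alone); these share members with the retrograde list. CIT1, mitochondrial citrate synthase, was at 0.83. Of 14 glyoxylate and gluconeogenesis genes, PCK1 (1.98), ACS1 (1.27) and CIT2 were higher and none lower, the median was 0.35, and 13 lay above 0. That median was 0.83 with plain subtraction and 0.92 with the authors' deposited log2 ratios. PCK1, phosphoenolpyruvate carboxykinase, went from 329 to 1788 in Cy3 and from 102 to 111 in Cy5. PCK1 had been near the 1st generation level before, at -0.17 and 0.07.

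Glycolysis as a list had a median of 0.00, and of 26 members PDC6, a minor pyruvate decarboxylase, and TDH1, a glyceraldehyde-3-phosphate dehydrogenase isozyme, were higher by 1.41 and 1.27. Its sign depends on the processing, as given in the closing section. The 1st generation signal of PDC6 was 24.2 and 30.2, close to the blank limits of 26.4 and 29.6. Of 18 hexose transporters and sensors, the high-affinity HXT2 went from 9295 to 21692, a difference of 1.43, and HXT5, expressed when growth slows, gave 1.13. HXT7 read -1.39, but its Cy3 intensity went up from 147 to 238 and its 1st generation signal from 157 to 536. HXT6, nearly identical to HXT7, read 0.01.

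Other mitochondrial lists had few or no members past 2-fold. Of 33 nuclear respiratory chain genes none was higher or lower, and the median of 0.06 changes sign with the processing. COX13 read -0.95 with a 1st generation signal that moved 2.47-fold. Of 73 mitochondrial ribosomal proteins, MRPS8 (1.05) and RSM19 (1.04) were higher and none lower, 56 lay above 0, and the median was 0.29. Against genes of like length MRPS8 and RSM19 read 0.83 and 0.82, within 2-fold.

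**Figure D4:**
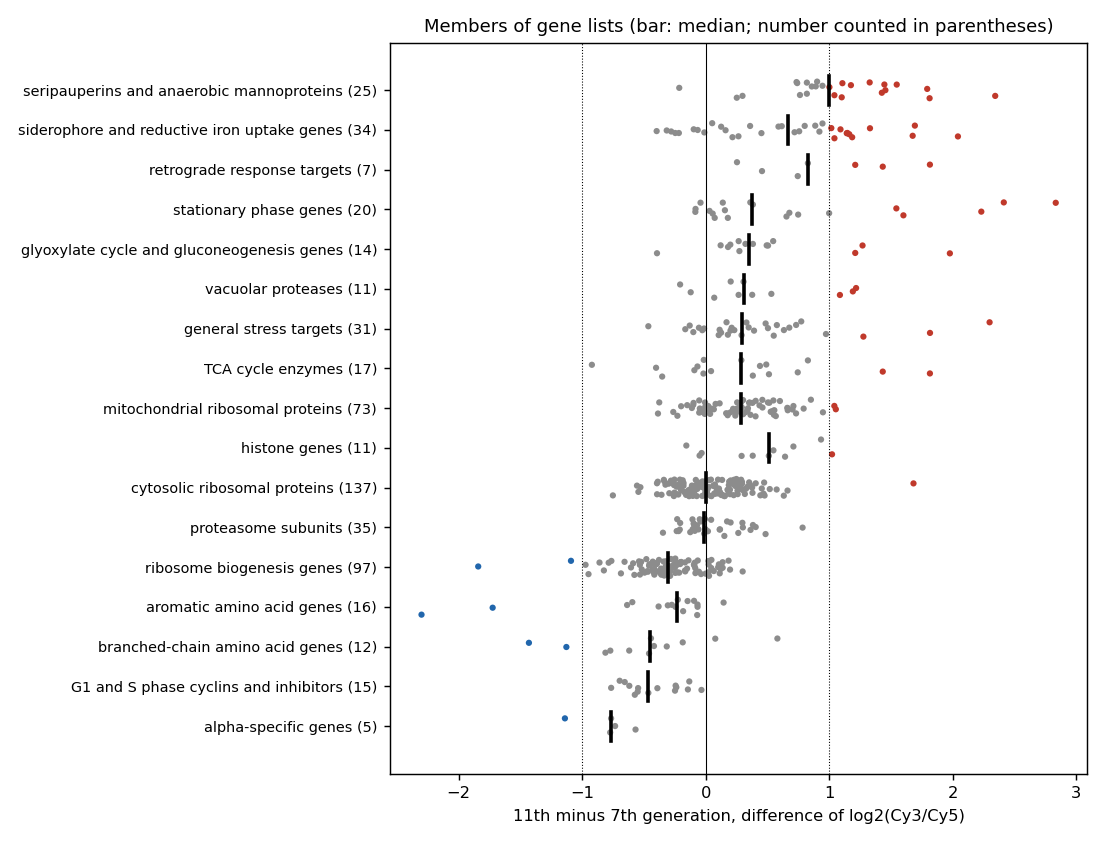
Rows are gene lists with the number of counted members in parentheses, points are members, bars are medians, and the horizontal axis gives the 11th minus 7th difference of log2(Cy3/Cy5). Points at or past 2-fold are red (higher) or blue (lower). The mannoprotein, retrograde and iron lists have the medians farthest above 0, at 1.00, 0.83 and 0.67, and the alpha-specific genes the one farthest below, at -0.77.

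The lowest feature of the comparison was ARO10. It encodes the decarboxylase that turns phenylpyruvate and related keto acids into fusel aldehydes, and with the aminotransferase ARO9 it is induced by aromatic amino acids. The Cy3 intensity of ARO10 was 3616, 3303 and 781 at generations 4, 7 and 11, against 269 and 265 for the 1st generation on the later arrays. Its ratios were 2.01, 2.10 and -0.20, so that it stood well above the 1st generation on the earlier arrays and near it at the 11th; the difference was -2.30 (4.93-fold).

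ARO9 behaved alike, with Cy3 intensities of 647 and 152, ratios of 1.12, 0.93 and -0.80, and a difference of -1.72. Of 16 aromatic amino acid genes these were the 2 lower ones, none was higher, 15 lay below 0 and the median was -0.24. Of 12 branched-chain genes, LEU1 and ILV3 were lower, 10 lay below 0 and the median was -0.45; BAT1, the mitochondrial branched-chain aminotransferase, was at -0.81 and LEU9 at -0.77, whereas the cytosolic BAT2 was at 0.58. Of 29 nitrogen catabolite genes, the ammonium permease MEP1 was higher by 1.08, GLT1 was lower and the median was 0.13 (0.41 with the authors' deposited log2 ratios).

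Ribosome biogenesis genes mostly lay below 0. Of 97, 81 lay below 0, none was higher, 2 were lower and the median was -0.30. The lower ones were DRS1 and HAS1, helicases of ribosome assembly. DRS1 read -1.09, but its 1st generation signal moved 1.42-fold, from 718 to 1008.5. On the Cy3 channel alone the DRS1 difference was -0.58, within 2-fold. HAS1 read -1.84, but its Cy3 intensity went from 1355 to 1906 and its 1st generation signal from 385 to 2132, so the older cells' own channel moved upwards. Like HAS1, RRP9 (-0.97) and DBP2 (-0.95) had a 1st generation signal that moved more than 1.5-fold.

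Ribosomal proteins were evenly split. Of 137 cytosolic ribosomal proteins, 69 lay above 0 and 68 below, with a median of 0.00, whose sign depends on the processing. RPS13, the 1 higher member, read 1.68, while its Cy3 intensity was 16333 and 18183 and its 1st generation signal went from 37796 to 10756. Of 20 subunits of RNA polymerases I and III, which make ribosomal and transfer RNA, none was higher or lower and 16 lay below 0, with a median of -0.16.

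Genes of cell division mostly lay below 0, none of those in the next 3 lists past 2-fold. All 15 cyclins and inhibitors of G1 and S phase lay below 0, with a median of -0.46 (-0.26 with loess within print blocks) and 4 past 1.5-fold. CLN1 and CLN2, the G1 cyclins that start a division, read -0.77 and -0.70, and SIC1, which restrains the S phase cyclins, read -0.66. Of 18 mitotic cyclins and regulators, 17 lay below 0, with a median of -0.24. Of 26 replication licensing and polymerase alpha genes, 22 lay below 0, with MCM6 lowest at -0.76 and a median of -0.21.

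RNR1, the large subunit of ribonucleotide reductase that makes DNA precursors in S phase, was lower: it went from 2354 to 1014 in Cy3 and from 688 to 647 in Cy5, a difference of -1.39 (2.62-fold). HUG1, a small inhibitor of that enzyme known as a target of the DNA damage checkpoint, went the other way, from 360 to 1582, a difference of 1.71. The remaining members of that list of 18 were within 2-fold, and its median was -0.18. Histone genes had a median of 0.51 among 11 (0.25 with the authors' deposited log2 ratios); HHT1 was higher by 1.02, and its near-identical copy HHT2 read 0.93, so that the probes may report the same transcripts.

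Genes made in newborn daughter cells serve to dissolve the septum between mother and daughter. EGT2, a wall glucanase of this kind, was lower, from 1482 to 842 in Cy3, a difference of -1.18, and DSE2 read -0.99. The summed raw Cy3 intensity of the 8 daughter markers was 9236, 7921 and 5003 on the 4th, 7th and 11th generation arrays, against 5499, 5117 and 4909 in the 1st generation channel, and all 8 were above the blank limit in every channel. The sum is weighted towards bright markers. DSE2, the brightest, went from 4077 to 2136 in Cy3 between the 7th and 11th generation arrays. With EGT2 it made up most of the fall, so the sum does not show a like fall of all 8. The share of daughters in the isolated cells is not stated in the sources used here, and its part in these results was not tested.

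The mating-type markers were read as a check of the strain label. All 4 alpha markers were above the blank limit in every channel, and so were all 6 a-cell markers in the 1st generation channel, at 30.1 to 86.9 on the 7th and 38.4 to 77.2 on the 11th generation array. Levels of different probes were not compared. All 5 alpha-specific genes lay below 0, with a median of -0.77, and MF(ALPHA)2, a gene for the secreted alpha pheromone, was lower, from 5212 to 2663 in Cy3 with 1st generation signals of 7656 and 7231, a difference of -1.14. SAG1, the alpha agglutinin, had ratios of -2.31, -2.77 and -3.54, and STE3, the receptor for the a pheromone, of -1.01, -1.48 and -2.25. The alpha-specific genes were thus below the 1st generation on each array and lowest on the last. The 4 alpha markers summed to 12041, 9521 and 5900 in Cy3 at generations 4, 7 and 11, against 12687.7, 12425.5 and 12347.5 in Cy5. This sum is weighted towards MF(ALPHA)2, the brightest, which read 7715, 5212 and 2663 in Cy3. MF(ALPHA)1 read 1715, 2511 and 1963, so it did not fall at each step.

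The 7 a-specific genes, which alpha cells are known to repress, had a median of 0.19 (0.42 with the authors' deposited log2 ratios) with none past 2-fold. Their 6 markers summed to 1029, 825 and 1227 in Cy3 at generations 4, 7 and 11. On the 7th generation array 5 of the 6 were above the blank limit in Cy3. Of the deleted genes, LEU2 was not above the blank limit in either channel of the 2 arrays, and LYS2 was not above it in Cy3. LYS2 was above it in Cy5, at 30.6 and 32.8 against limits of 26.4 and 29.6. URA3 read 55.0 and 56.3 in Cy3, against limits of 70.5 and 51.3, and was above the limit in Cy5, at 34.4 and 41.6. HIS3, whose deletion in this strain is partial, kept signal and so checks nothing. HIS3, LYS2 and URA3 differed by 0.03, -0.02 and -0.22. Of 23 pheromone-induced genes, PRM4 was higher by 1.25 and PRM7 was lower, at -1.21, with a median of -0.04.

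Zinc and phosphate genes had 1 and 3 lower members. ZRT1, the high-affinity zinc transporter, had ratios of 1.53, 0.93 and -0.45, with Cy3 intensities of 1219 and 498, and was the 1 lower gene of 16 in the zinc list, at -1.38; the median of that list was -0.30. ZRT1 went down with each later array. PHO3 and PHO5, acid phosphatases that are neighbours on their chromosome and similar in sequence, read -1.32 and -1.14. VTC4, a polyphosphate synthase subunit, read -1.27 with a 1st generation signal that fell from 1061 to 575, and completed the 3 lower of 26 phosphate genes, whose median was -0.12. PMA1, the plasma membrane proton pump, read -0.82.

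Vacuolar proteases and their inhibitors had 3 higher of 11 and none lower, with a median of 0.31 (0.17 on the Cy3 channel alone). These were PAI3 (1.22) and PBI2 (1.19), inhibitors of proteinases A and B, and APE1, an aminopeptidase delivered by autophagy (1.09). None of 33 autophagy genes was past 2-fold, 24 lay above 0 and the median was 0.23, with ATG5 at 0.91 and ATG8 at 0.77. Proteasome subunits had none past 2-fold of 35 and a median of -0.01 whose sign depends on the processing.

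Among ageing regulators, none of 16 sirtuins and rDNA silencing factors and none of 24 members of the TOR, Sch9 and protein kinase A pathways was past 2-fold, with medians of -0.10 and -0.13. HST1, a paralogue of SIR2, read 0.63, with a 1st generation signal that moved 1.88-fold. TPO4, a polyamine exporter, was the 1 gene of 18 pleiotropic drug resistance genes past 2-fold, at -1.82, with Cy3 intensities of 987 and 126 and a 1st generation signal of 72.1 and 41.8. Of 25 antioxidant enzymes, the peroxiredoxin TSA2 was higher by 1.16, 20 lay above 0 and the median was 0.21.

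The difference followed gene length. In 10 groups of genes by coding length, the median difference ran from 0.22 in the shortest group, of 78 to 468 bases, to -0.17 in the longest, from 2844 bases upwards. Over 5503 genes the rank correlation was -0.36, and it was -0.20 for the 7th against the 4th generation, which shares the 7th generation array. It is a description across genes, which are not independent. The higher features had a median length of 708 bases and the lower ones of 1605, against 1239 for all. When each gene was set against genes of like length, 83 were higher and 36 lower, 76 and 28 of them shared with the counts above. Medians of the main lists became 0.78 for the mannoproteins, 0.70 for iron uptake, 0.87 for the retrograde targets, 0.15 for the stationary phase genes, -0.24 for ribosome biogenesis and 0.29 for the histones. At like length the medians of 8 lists changed sign: a-specific genes (to -0.03), sirtuins and silencing factors (to 0.04), aerobic and hypoxic isoforms (to 0.03), pheromone-induced genes (to 0.02), the respiratory chain (to -0.04), cytosolic ribosomal proteins (to -0.09), amino acid permeases (to 0.02) and proton pumps (to -0.02). The median of the mitochondrial ribosomal proteins became 0.17. Of the named calls, 12 ended at like length: 11 higher (PAU9, PAU11, PAU15, PAU19, PAI3, PBI2, TSA2, MRPS8, RSM19, HHT1 and ISU1, at 0.78 to 0.998) and the lower DRS1 (-0.97).

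The channels were also read apart. On the Cy3 channel alone, 91 of the 103 higher features were at least 2-fold higher and 23 of the 34 lower ones at least 2-fold lower, while 1 and 3 had the opposite sign. Neighbouring spots in the order of the file moved together in the 1st generation channel for 10 of the 34 lower and 3 of the 103 higher features. Over all features this held for 103 of the 5556 counted. RPS13 and SLG1, chosen after their values were seen, were such a pair, with 1st generation differences of -1.59 and -1.39 and Cy3 differences of 0.10 and -0.15. UTR4 and ITT1 were another, with 1st generation differences of 1.49 and 1.16 and Cy3 differences of -0.22 and 0.09. ARO10, LEU1, RNR1, ZRT1, PHO5 and MF(ALPHA)2 had 1st generation signals within 1.5-fold.

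**Figure D5:**
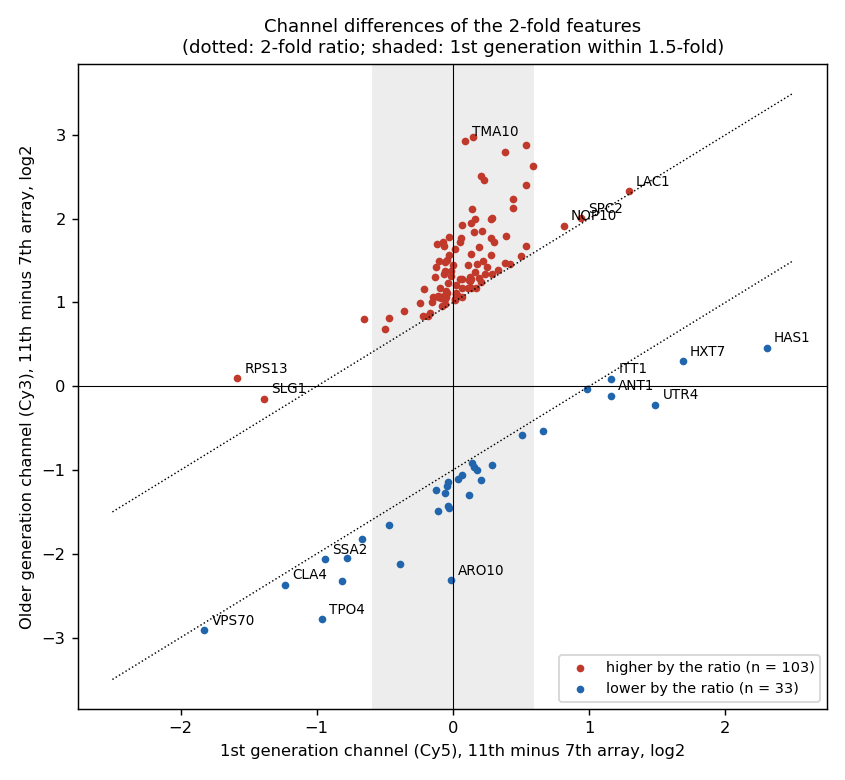
The horizontal axis gives the log2 difference of the 1st generation channel (Cy5) and the vertical axis that of the older generation channel (Cy3), each 11th minus 7th array, for the 103 higher (red) and 33 lower (blue) features that name 1 locus; the lower feature that names several loci is not drawn. Dotted lines mark a 2-fold ratio and shading a 1st generation signal within 1.5-fold. Most red points lie in the shaded band, while 14 lower features, among them HAS1, HXT7 and TPO4, lie outside it.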

How the data were processed

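RNA of 4th, 7th and 11th generation cells (Cy3), each with 1st generation cells (Cy5), was measured on 1 array per generation. Per the file headers, the deposited array files hold raw spot intensity in both channels without background subtraction, signals the authors then background-subtracted and scaled, and their ratio; the deposited series table holds its log2, which matched the array files to within 5e-08. Raw intensities were used here. They were corrected by normexp (offset 50) and loess within arrays (span 0.3, control spots at weight 0) in limma 3.58.1 under R 4.3.3. Spots of a feature were averaged, and log2(Cy3/Cy5) of the 11th minus the 7th generation was taken. A feature counted if at least 1 channel on both arrays had raw signal above a limit, the blank mean plus 2 SD over 320 blank spots; the limits were 26.4 and 29.6 in Cy5 and 70.5 and 51.3 in Cy3. Median raw Cy3 intensity was 496 and 592. Of 72 negative control spots, 13 and 12 passed the limit in Cy5 and 0 and 9 in Cy3. The number of arrays limits the precision, and the SD of the 7th minus 4th difference is a scale, not an error.

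Features were matched to the reference gene table by systematic name (5730 matched, 89 symbols updated, assembly R64), which gave names, gene order and coding length only; 35 features naming several loci were named nowhere. The procedure was tested on simulated intensities. Named genes were the 20 highest and 20 lowest past 2-fold, the 4 largest of each of 56 lists and every list member past 2-fold, the mating-type genes and the genes deleted in the strain; any other name was chosen after its values were seen. The comparison, its lists and rules were chosen with earlier results of these data known. Lists share members. The text leaves out 1 list and does not print every gene that these rules named. RPP1, an RNase P subunit drawn in by a name pattern, was removed from the ribosomal proteins. A planned description of promoter motifs was not made, because no promoter sequence was used here. Alternatives were another background correction or normalisation, the authors' deposited log2 values, the Cy3 channel alone (Aquantile between arrays), other filters and thresholds and, chosen after seeing the data, a stable 1st generation signal, leaving out print blocks 1 and 2, and like coding length.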

Additional observations from a re-analysis of the deposited data

Results flagged for a closer look

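A sign change between the generations marked 6 features: at least 1.5-fold on one side of the 1st generation at the 7th and on the other side at the 11th. None of these differences was tested, since each generation has 1 array. HSP26, a small heat shock protein, went from -1.12 to 0.69, a difference of 1.82. UIP3, a nuclear envelope protein, went from -0.78 to 0.81, a difference of 1.60. HXT2, the high-affinity glucose transporter, went from -0.71 to 0.72, a difference of 1.43. SLG1, a cell wall stress sensor, went from -0.61 to 0.62, a difference of 1.24, with a 1st generation signal that moved 2.61-fold between the arrays. EFM2, a methyltransferase of elongation factors, went from 0.68 to -0.82, a difference of -1.505, with a 1st generation signal that moved 1.76-fold. ARO9 went from 0.93 to -0.80, a difference of -1.72, with a 1st generation signal within 1.5-fold.

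Of the 8 ACT1 spots, the one in block 4 stood far from the others, at -1.73 against -0.15 to -0.064 for the other 7. Its Cy5 signal went from 8996 to 27085 and its Cy3 signal from 18349.8 to 14495. Chance alone marks about 1 in 20 such groups of values.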

How the results depend on the processing

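No paired analysis was possible because each generation has 1 array, and for the same reason no replicate could be left out. Against 103 higher and 34 lower features, the counts were 252 and 123 with plain subtraction of the blank signal, 232 and 86 with the authors' deposited log2 ratios, 177 and 82 on the Cy3 channel alone, and 377 and 209 at 1.5-fold. Of the original calls, 102 and 34 were shared under plain subtraction, 86 and 33 under the authors' values and 91 and 23 on the Cy3 channel. Of the alternatives chosen after seeing the data, the lower count alone moved, to 20 with a 1st generation signal within 1.5-fold and to 17 without print blocks 1 and 2. Counts stayed within 1.5 times under loess within print blocks (107 and 31), median centring (130 and 44), no background correction (127 and 46), no filter (104 and 34), signal above background in both channels (101 and 34) and like coding length (83 and 36). The 241 named genes had 1441 alternative values, but only the 87 of these genes that were called could count as reversed. Among the called genes, 2 values reversed a call: HAS1 to 0.46 and HXT7 to 0.30 on the Cy3 channel alone. List medians kept their sign under all 6 processing alternatives for 48 of 56 lists; the exceptions were proteasome subunits, glycolysis, respiratory chain, cytosolic ribosomal proteins, glycine and one-carbon genes, amino acid permeases, proton pumps and drug resistance genes. Of 40 lists with a median of at least 0.1 in size, 24 had it moved over 1.5 times by some alternative, most of all the mitochondrial DNA-encoded genes (-0.11 to -0.58) and nitrogen catabolite genes (0.13 to 0.41), both with the authors' values. Others with the authors' values were hexose transporters (0.28), vitamin B6 and thiamine genes (0.29), translation factors (-0.26), trehalose and glycogen enzymes (0.27), purine genes (-0.28) and RNA polymerases I and III (-0.26). With plain subtraction they were stationary phase (0.59), autophagy (0.35), phosphate (-0.22), mitotic (-0.39) and replication genes (-0.35). On the Cy3 channel alone they were ergosterol (-0.27), histidine and arginine (0.10) and TOR, Sch9 and protein kinase A genes (-0.21). Biotin genes read -0.05 with loess within blocks and eisosome genes -0.08 with the authors' values. Signal near the blank limit bounds what dim features such as DAN1 and PDC6 can show against the 1st generation.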

Other observations

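Further gene lists had few or no members past 2-fold between the 7th and 11th generation. None of 16 trehalose and glycogen enzymes was past 2-fold, with 12 above 0 and a median of 0.17, and none of 20 peroxisomal beta-oxidation genes, with a median of 0.17. Of 12 small heat shock and disaggregation genes, HSP12 and HSP26 were higher, with a median of 0.06. Of 5 counted genes of mitochondrial DNA none was past 2-fold, with a median of -0.11 and OLI1, an ATP synthase subunit, at -0.63. Of 15 eisosome genes, PUN1 was higher, the median was -0.18, and SUR7, which marks the same membrane compartment, read -0.95.

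Of 37 translation factors, ANB1 was higher and TEF4, an elongation factor subunit whose 1st generation signal moved, was lower (-1.15), with a median of -0.13. Purine synthesis had none past 2-fold of 18 and a median of -0.18, with IMD4, an IMP dehydrogenase, at -0.82. None was past 2-fold among 16 glycine and one-carbon genes (median -0.01), 33 sulfate and methionine genes (-0.05), 16 histidine and arginine genes (0.21), 8 lysine genes (0.09), 21 amino acid permeases (-0.06), 6 biotin genes (-0.16), 20 proton pumps (0.05) and 17 genes of the pheromone signalling cascade (-0.16). Of 22 vitamin B6 and thiamine genes, SNZ1 was higher and PHO3 lower, with a median of 0.12, and the 18 drug resistance genes had a median of 0.01. Of 18 hexose transporters and sensors the median was 0.14. Several of the 20 highest features belong to none of the lists: PBI1 (1.86), BOP2 (1.86), GID10 (1.83), MNC1 (1.80), DPI8 (1.74), NQM1 (1.72) and PDH1 (1.71). Among the 20 lowest, YDL038C (-1.41), ANT1 (-1.27) and SET6 (-1.19) were also outside the lists. The 1st generation signal of ANT1 moved 2.24-fold and that of SET6 1.58-fold.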
